A study of Saccharomyces cerevisiae with 2 samples.

Results

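The 10 genes described here encode regulators of iron supply and proteins that handle iron inside the cell of the budding yeast Saccharomyces cerevisiae. They were chosen by their symbols in the deposited tables, as 4 regulators (AFT1, AFT2, TIS11 and CTH1) and 6 effectors (HMX1, CCC1, MRS4, ISU1, ISU2 and FTH1), out of 5659 genes with a read in either strain. All 10 had reads in both libraries and a mean level of at least 1 RPKM (reads per kilobase of coding length per M, or mega, reads), as did 5532 of all genes. The first strain is ZTW1, a wild type for bioethanol production, and the other is ZGR3, a mutant derived from ZTW1 with the same application, and 1 RNA library of each was sequenced. Cultures of both started in YPD, which is rich and holds 20 g/L glucose, at an OD600 of 0.05 and were sampled on entry into early stationary phase. The labels used here do not give the mutation of ZGR3, the ploidy of either strain or the iron content of the medium.

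Budding yeast senses iron through Aft1 and Aft2, transcription factors that are active when little iron-sulfur cluster is made in mitochondria and that then switch on the genes of the iron regulon. Tis11, also called Cth2, and its paralog Cth1 are RNA-binding zinc finger proteins that lead to the decay of messenger RNAs of iron-rich proteins when iron is short. The effectors move or use iron: Ccc1 carries it into the vacuole, Fth1 returns it from there, Mrs4 brings it into mitochondria, Isu1 and Isu2 are the scaffolds on which mitochondrial iron-sulfur clusters are built, and Hmx1 takes part in haem breakdown. TIS11, HMX1, MRS4, ISU1 and FTH1 are known targets of Aft1 or Aft2, while CCC1 is known to be switched on by Yap5 when iron is plentiful.

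Reads assigned to genes totalled 4.66 M in ZTW1 and 4.61 M in ZGR3, with medians of 188 and 183 per gene. With 1 library per strain no difference has a replicate check and no test was possible. Folds compare reads per total reads, and their 95% intervals (Clopper-Pearson, of the share of a gene's reads that came from ZGR3) cover counting error alone, which makes them statements about 2 libraries rather than 2 strains. In RNA from whole cultures, fewer cells with a transcript and less of it per cell cannot be told apart.

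TIS11 was the 1 member at least 2-fold apart between the libraries, and it was lower in ZGR3. The comparison asks how transcript levels in the mutant differ from those in its parent, and 1 of 10 members at least 2-fold lower and 0 higher stand beside 1.92% and 0.542% of all genes tested, on the log2(RPKM + 1) scale. A count of 1 in 10 says little of the members as a group. Counting intervals lay below equality for 5 members (AFT1, TIS11, HMX1, ISU1 and FTH1) and above it for CCC1. Of all genes, 19.8% had an interval below equality and 17.9% above. For AFT2, CTH1, MRS4 and ISU2 no difference could be detected with the reads at hand.

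**Figure D1:**
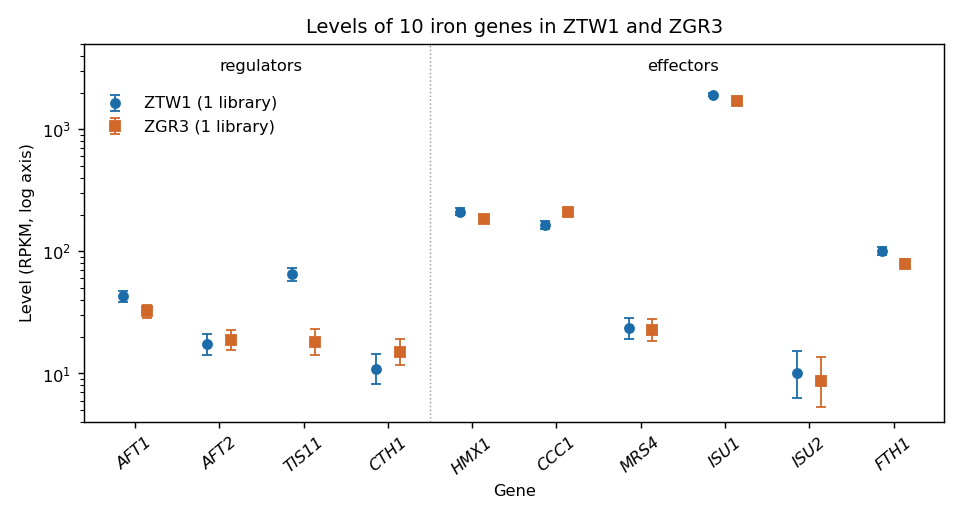
Level of each gene in RPKM on a log axis, in ZTW1 (blue circles) and ZGR3 (orange squares), 1 library each, with exact 95% Poisson intervals of the reads as bars. TIS11 went from 64.8 to 18.2 RPKM, the widest gap of the 10 genes on this axis, and ISU1 had the highest level in both libraries, 1914 and 1690 RPKM.

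Among the regulators, TIS11 (YLR136C, chromosome XII) had 259 reads in ZTW1 and 72 in ZGR3. Its level was 64.8 RPKM (95% Poisson interval 57.1 to 73.2) in ZTW1 and 18.2 RPKM (14.2 to 22.9) in ZGR3. These intervals did not overlap. Its log2 ratio of −1.78 was the 24th lowest of the 5532 genes, and in order of level it stood at place 1719 in ZTW1 and 3738 in ZGR3. Per the authors' coverage column, reads covered 96.39% of its coding length in ZTW1 and 98.48% in ZGR3. How evenly they were spread is not given by that column.

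CTH1 (YDR151C, chromosome IV), the paralog of TIS11, counted 50 reads in ZTW1 and 68 in ZGR3, or 11.0 and 15.1 RPKM. It was 1.38-fold higher in ZGR3 (0.940 to 2.02), an interval that includes equality. The balance of the pair therefore differed between the libraries. TIS11 held 83.8% of the reads of both genes in ZTW1 (Clopper-Pearson interval 79.2 to 87.7) and 51.4% in ZGR3 (42.8 to 60.0). Per length, TIS11 was at 5.90 times the level of CTH1 in ZTW1 and at 1.21 times in ZGR3. The RPKM intervals of TIS11 and CTH1 did not overlap in ZTW1 and did in ZGR3.

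AFT1 (YGL071W, chromosome VII), for the main iron-responsive transcription factor, had 413 reads in ZTW1 and 308 in ZGR3, or 42.7 and 32.2 RPKM. It was 1.33-fold lower in ZGR3 (1.14 to 1.54), with a log2 ratio of −0.40, which is within 2-fold. AFT2 (YPL202C, chromosome XVI), for the second factor, had 101 and 109 reads, or 17.3 and 18.9 RPKM. Its fold was 1.09 (0.825 to 1.44), so a difference was not detectable. AFT1 was the more abundant of the pair in both libraries, with 80.4% of their reads in ZTW1 (76.6 to 83.7) and 73.9% in ZGR3 (69.4 to 78.0). These 2 intervals overlap, which does not show that the balance was the same. Per length, AFT1 was at 2.47 times the level of AFT2 in ZTW1 and at 1.71 times in ZGR3.

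**Figure D2:**
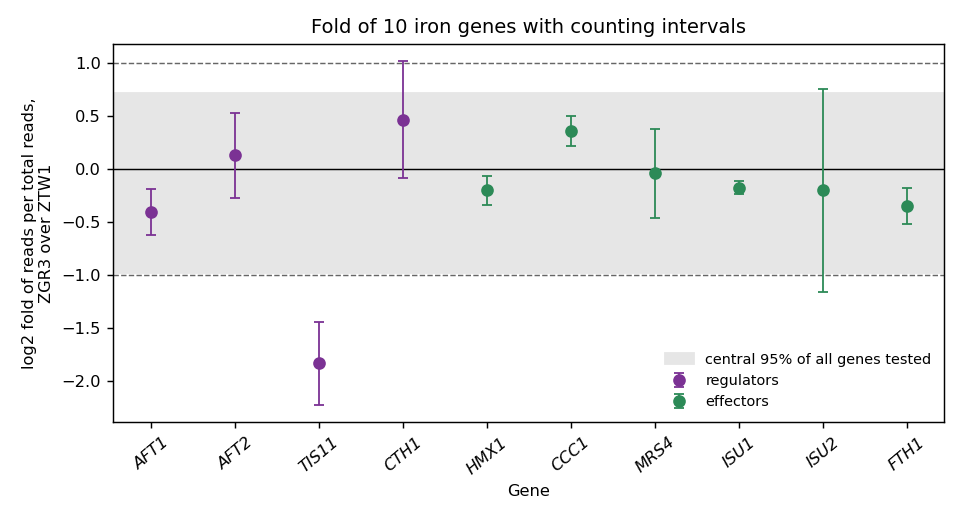
Fold of reads per total reads, ZGR3 over ZTW1, on a log2 axis for the 4 regulators (purple) and 6 effectors (green), with exact 95% counting intervals as bars; the grey band holds the central 95% of all genes tested and dashed lines mark 2-fold. TIS11 lies below the band and the lower line, and the points of the other 9 genes lie inside the band.

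Of the effectors that move iron across membranes, the vacuolar pair lay on opposite sides of equality. CCC1 (YLR220W, chromosome XII), which loads iron into the vacuole, had 742 reads in ZTW1 and 940 in ZGR3, or 164 and 210 RPKM. It was 1.28-fold higher in ZGR3 (1.16 to 1.41). FTH1 (YBR207W, chromosome II), the permease of the vacuolar iron exporter, had 658 and 511 reads, or 101 and 79.3 RPKM. It was 1.27-fold lower (1.13 to 1.43). The counting intervals of both genes exclude equality, and both differences are within 2-fold.

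FTR1, a relative of FTH1, encodes the permease of the iron uptake system at the cell surface, and was set beside it as a non-member. FTR1 had 923 reads in ZTW1 and 409 in ZGR3, with a log2 ratio of −1.15 against −0.34 for FTH1. FTH1 held 41.6% of the reads of the pair in ZTW1 (39.2 to 44.1) and 55.5% in ZGR3 (52.3 to 58.8). Per length, the level of FTH1 was 0.620 times that of FTR1 in ZTW1 and 1.09 times in ZGR3.

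MRS4 (YKR052C, chromosome XI), the mitochondrial carrier, had 100 reads in ZTW1 and 96 in ZGR3, or 23.4 and 22.8 RPKM. Its fold of 0.971 had an interval of 0.726 to 1.30. Its log2 ratio of −0.041 was 0.20 after subtraction of the median of chromosome XI, which was −0.24, and 0.036 after a correction for coding length, so no direction is given for it. The related carrier gene MRS3, a non-member, had 68 and 63 reads. MRS4 held 59.5% of the reads of this pair in ZTW1 (51.7 to 67.0) and 60.4% in ZGR3 (52.3 to 68.0), and these intervals overlap almost entirely.

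The scaffold genes differed far more from each other than between the strains. ISU1 (YPL135W, chromosome XVI) had 4442 reads in ZTW1 and 3879 in ZGR3, or 1914 and 1690 RPKM, places 79 and 86 among all genes. It was 1.13-fold lower in ZGR3 (1.08 to 1.18). Its coding length of 498 bases is short, and log2 ratios varied with coding length: its own of −0.18 was −0.062 after subtraction of a running median over genes of like length. ISU2 (YOR226C, chromosome XV) had 22 and 19 reads, or 10.0 and 8.75 RPKM, with a fold of 0.873 (0.447 to 1.69). ISU1 held 99.5% of the reads of the pair in both libraries, at 191 times the level of ISU2 in ZTW1 and 193 times in ZGR3. The few reads of ISU2 covered 76.65% and 85.99% of its length. Reads shared between the copies were not tested.

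HMX1 (YLR205C, chromosome XII), which encodes the haem breakdown protein, had 943 reads in ZTW1 and 811 in ZGR3, or 212 and 184 RPKM. It was 1.15-fold lower in ZGR3 (1.05 to 1.26), with a log2 ratio of −0.20. HMX1 was above CCC1 in ZTW1, where their RPKM intervals did not overlap, and below it in ZGR3, where they overlapped by a small margin (172 to 198 for HMX1 and 197 to 224 for CCC1).

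**Figure D3:**
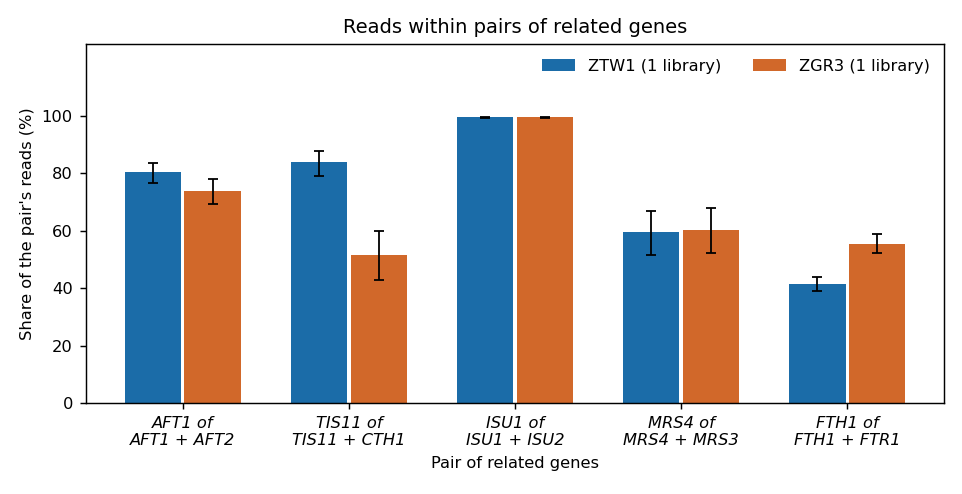
Share of the reads of a pair of related genes, in percent, that belonged to the first gene, in ZTW1 (blue) and ZGR3 (orange), 1 library each, with exact 95% Clopper-Pearson intervals as bars. The intervals of TIS11 with CTH1 (83.8% and 51.4%) and of FTH1 with FTR1 (41.6% and 55.5%) do not overlap between the libraries. Those of the other 3 pairs overlap, which does not show that their shares are equal.

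Ordered by level per length, the members in ZTW1 ran from ISU1 through HMX1, CCC1, FTH1, TIS11, AFT1, MRS4, AFT2 and CTH1 to ISU2. The Poisson intervals of neighbours in this order overlapped from MRS4 downwards and not above it, and overlap does not show that levels were equal. In ZGR3 the order was ISU1, CCC1, HMX1, FTH1, AFT1, MRS4, AFT2, TIS11, CTH1 and ISU2. Here CCC1 overlapped with HMX1, and each gene from MRS4 downwards overlapped with the next. TIS11 was thus the 5th of the members in ZTW1 and the 8th in ZGR3, where its interval overlapped with those of AFT2 and CTH1.

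As groups, regulators and effectors had similar medians and different ranges, but the medians rest on 4 and 6 genes. The log2 ratios of the 4 regulators ran from −1.78 to 0.43 with a median of −0.14, and 2 lay below 0. Those of the 6 effectors ran from −0.34 to 0.36 with a median of −0.18, and 5 lay below 0. The median over all genes tested was −0.016, with 2874 of 5532 below 0. Without TIS11, the median of the other 3 regulators was 0.12. The regulators together had 823 reads in ZTW1 and 557 in ZGR3, and without TIS11 564 and 485, so reads of TIS11 make up most of the gap. The effectors together had 6907 and 6256 reads, most of them from ISU1.

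**Figure D4:**
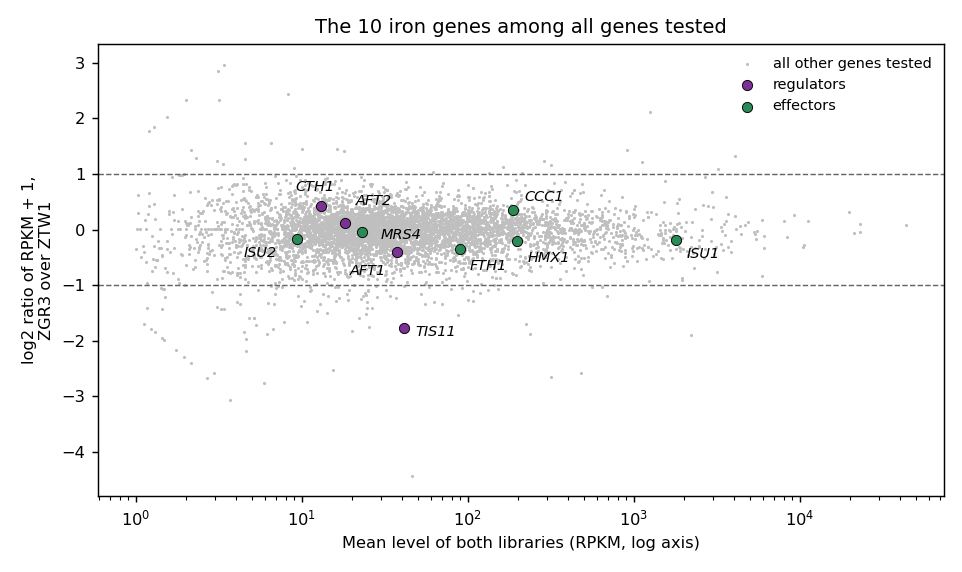
log2 ratio of RPKM + 1, ZGR3 over ZTW1, against the mean RPKM of both libraries on a log axis, for all genes tested (grey points), the 4 regulators (purple) and the 6 effectors (green); dashed lines mark 2-fold. TIS11 at −1.78 lies below the lower line, and the other 9 members lie between −0.40 and 0.43.

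Other genes of iron metabolism were taken from 9 lists with 103 genes, all of which passed the filter on low values. Of these, 10 were at least 2-fold lower in ZGR3 and 1 at least 2-fold higher, where the shares over all genes were 1.92% and 0.542%. Of the 10, 8 were in the list named cell surface iron uptake, which also holds the copper delivery genes CCC2 (−0.52) and ATX1 (−0.83). That list of 17 genes had a median log2 ratio of −0.85, with 14 below 0. Its 8 genes past the rule were FIT2 (−2.64), FIT3 (−2.58), the manganese transporter gene SMF1 (−1.75), SIT1 (−1.69), the multicopper ferroxidase gene FET3 (−1.54), the siderophore transporter gene ARN1 (−1.34), the ferric reductase gene FRE1 (−1.20) and FTR1 (−1.15). FET3 went from 1159 to 388 reads and FRE1 from 461 to 193. The 3 genes of the list above 0 were FRE4 (0.39, from 34 and 47 reads), FIT1 (0.28, from 48 and 59) and FET4 (0.23, from 341 and 396). Of these 3, the counting interval of FET4 lay above equality (1.01 to 1.36). The effectors had 0 of 6 genes past the rule, and the difference between the groups was not tested.

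The list of iron sensing genes, partners of Aft1 and Aft2 together with YAP5, had a median of 0.17, with 5 of 6 above 0 and 0 past 2-fold. The glutaredoxin genes GRX3 and GRX4, whose products bind iron-sulfur clusters and restrain Aft1, were 1.45-fold (1.15 to 1.84) and 1.34-fold (1.13 to 1.59) higher in ZGR3. GRX3 had 128 reads in ZTW1 and 184 in ZGR3, and GRX4 had 237 and 314. FRA2, for another protein of this complex, was at 0.0045, and YAP5 at −0.22 from 127 and 107 reads. Counting intervals lay above equality for GRX3, GRX4, FRA1 and MSN5, 4 of the 6 genes, and below it for 0. The shares over all genes were 17.9% and 19.8%. FRA1 was 1.08-fold higher (1.01 to 1.15) from 1943 and 2070 reads, and MSN5 1.18-fold (1.07 to 1.30) from 778 and 909. Such intervals narrow with more reads, and the median over all genes was 188 and 183 reads.

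Other genes listed under mitochondrial iron-sulfur cluster assembly had a median of −0.31, with 14 of 17 below 0 and 0 past 2-fold. Counting intervals lay below equality for 9 of them and above it for 1, beside 19.8% and 17.9% of all genes. In the list of cell surface uptake they lay below equality for 12 of 17 genes and above it for 1. For haem proteins these counts were 8 and 2 of 11, and for non-haem iron enzymes 8 and 1 of 12. They were 5 and 0 of 8 for haem synthesis and 3 and 0 of 5 for vacuolar and mitochondrial carriers. Iron-sulfur proteins had 6 and 3 of 19, and cytosolic assembly 0 and 0 of 8. In ZTW1 and ZGR3, the 11 haem protein genes together had 62202 and 76537 reads, and the 12 non-haem enzyme genes 57468 and 39659. The median over all genes was 188 and 183 reads. With many reads small folds can exclude equality, so these counts are not matched in depth to the shares over all genes. ISD11, which stabilises the cysteine desulfurase, was at −0.92 from 171 and 89 reads, and ISA2, a late-acting assembly gene, at −0.66 from 110 and 68 reads. The frataxin gene YFH1 was at −0.59 and the desulfurase gene NFS1 at −0.044. After the correction for coding length the median of the list was −0.19. Cytosolic iron-sulfur assembly had a median of −0.018, with 4 of 8 below 0 and 0 past 2-fold; the genes furthest from 0 were YHR122W (−0.31) and CIA1 (0.25).

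Other carriers and reductases of the vacuole and mitochondria had a median of −0.38, with 4 of 5 below 0 and 0 past 2-fold. The vacuolar reductase gene FRE6 was at −0.67 from 664 and 409 reads. FET5, for the vacuolar oxidase that works with Fth1, was at −0.40 from 796 and 595 reads, beside −0.34 for FTH1. Haem synthesis had a median of −0.28, with 6 of 8 below 0 and 0 past 2-fold, and was furthest from 0 for HEM3 (−0.62) and HEM2 (−0.54).

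Among proteins that need iron, genes for iron-sulfur proteins had a median of −0.027, with 10 of 19 below 0. The biotin synthase gene BIO2 (−1.59) was the 1 gene past 2-fold there, and RIP1, for the Rieske protein of the respiratory chain, was at −0.51. Genes for haem proteins had a median of −0.37, with 8 of 11 below 0. In that list CYB5, for cytochrome b5, was at −1.11 and the catalase gene CTT1 at 1.09, on opposite sides. Genes for non-haem iron enzymes had a median of −0.23, with 9 of 12 below 0 and 0 past 2-fold, and were furthest from 0 for BNA1 (−0.88) and the desaturase gene OLE1 (−0.76).

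**Figure D5:**
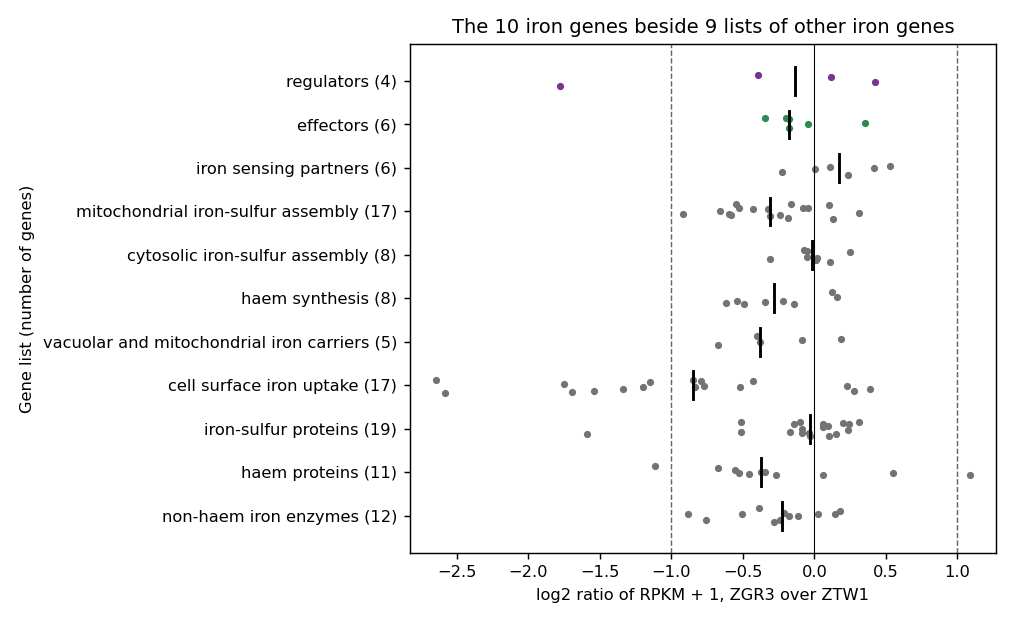
log2 ratio of RPKM + 1, ZGR3 over ZTW1, of each regulator (purple), effector (green) and gene of 9 lists of other iron genes (grey), 1 point per gene with random vertical scatter; black bars are medians and dashed lines mark 2-fold. Cell surface iron uptake has 8 of 17 genes left of the lower line, the regulators have TIS11 alone there, and the effectors have none.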

How the data were processed

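Read counts per gene were deposited for each library, as uniquely assigned reads per the file headers, and add up to the total stated there. The authors' RPKM followed from reads, length and that total. Their coverage column is, per the file headers, the percent of a gene covered by reads. Libraries were made from poly(A) RNA with Illumina reagents, per the labels' protocols. The submitters' processing notes name sacCer2 as genome build. How reads were aligned and filtered and whether strand was used is not given in the sources used, and reads of overlapping or antisense genes cannot be told apart. A gene missing from a table was set to 0.

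Log2 ratios are of RPKM + 1, ZGR3 over ZTW1, in genes whose mean RPKM reached 1, a scale that understates the differences of low genes. A gene was called when at least 2-fold apart on it. Reads carry no molecular identifiers. All 5659 listed lengths are multiples of 3, hence coding length. Systematic names, chromosomes and gene order come from the RefSeq table of assembly R64, matched by gene ID for all 10 members. No coordinates or sequences are given because the builds differ.

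Members, lists and tests were chosen with earlier results of these data known. All members were named, with the genes of each list at least 2-fold apart and the 2 furthest from 0 with a mean of 10 RPKM or more, and MRS3 and FTR1. YAP5, FRA1, FRA2, MSN5, YFH1, NFS1, CCC2, ATX1, FRE4, FIT1 and FET4 were added after their values were seen. Alternatives were other pseudocounts, filters, units and size rules, edgeR 4.0.16 and DESeq2 1.42.0 scaling, and corrections for chromosome and coding length. The steps, in Python 3.11.15 with scipy 1.17.1, were tested on simulated data.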

Additional observations from a re-analysis of the deposited data

How the results depend on the processing

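Under 12 alternatives TIS11 was the 1 member past the rule of size in use, including 1.5-fold and 3-fold, and its log2 ratio ran from −1.83 to −1.59. The other members kept their sign except MRS4 (−0.041), which was at 0.20 with chromosome medians subtracted and 0.036 corrected for coding length. The median of the regulators ran from −0.14 to −0.12. That of the effectors was −0.18, and −0.066 corrected for coding length. Among the 103 other iron genes, 10 were lower and 1 higher at 2-fold, 23 lower at 1.5-fold, and 5 lower and 0 higher at 3-fold. Corrected for coding length, CYB5 no longer passed, leaving 0 haem protein genes 2-fold lower. The median of cell surface uptake ran from −1.20 (from 10 RPKM upwards) to −0.69 (pseudocount of 5 RPKM), and that of iron-sulfur proteins from −0.049 to 0.063. Over all genes, 30 were higher and 106 lower at 2-fold, 16 and 51 with a pseudocount of 5 RPKM, 14 and 61 from 10 RPKM upwards, 201 and 409 at 1.5-fold, and 9 and 32 at 3-fold. The median of all genes was −0.016, and 0.0013 with TMM scaling. Shares of RPKM in place of reads were 71.2% and 63.0% for AFT1 with AFT2 and 38.3% and 52.1% for FTH1 with FTR1, in ZTW1 and ZGR3. Depth limits ISU2, CTH1, MRS4 and AFT2, with at most 109 reads in a library. No paired analysis was possible because each strain has 1 library.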

Other observations

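The genes next to each member in the order of assembly R64 were read as a check on position. The 20 neighbours had log2 ratios from −0.61 to 0.39, and 0 were at least 2-fold apart. TIS11 lies between SLX4 (0.39, from 88 and 117 reads) and RKM5 (0.055, from 29 and 30 reads), both on the opposite strand. The lowest neighbour was DUR12 (−0.61, from 451 and 283 reads), a urea breakdown gene beside FTH1. No coding region of a member overlapped that of a neighbouring protein-coding gene in R64. HMX1, CCC1 and TIS11 share chromosome XII, whose median was −0.016, and were at −0.20, 0.36 and −1.78.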
